A study of Mus musculus with 13 samples.

Results

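The 10 genes described here mark the trophectoderm, the outer epithelium of the blastocyst. They are the transcription factors Cdx2, Eomes, Elf5, Gata2, Gata3, Tead4, Tfap2a and Tfap2c and the keratins Krt8 and Krt18. They were chosen by name, by a rule that uses no measured value, though with earlier results of these data known, and are 10 of the 31528 genes in the deposited table. All 10 passed the filter on low counts and were among the 21808 genes tested.

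RNA was sequenced from 13 libraries of mouse blastocysts of the B6D2F1 background (mixed C57BL/6 and DBA2J), which the labels place in 6 groups. The E4.5 group (2 libraries) is wild type, under a normal diet, from embryonic day 4.5. The other groups are from day 5.5: OVX (2 libraries, wild type, after ovariectomy), starvation (2, wild type), depleted KSOM (2, wild type, cultured in the embryo medium KSOM with its protein and carbohydrate components left out), reduced KSOM (3, wild type, cultured in KSOM with less arginine, leucine, isoleucine, lysine, glucose and lactate) and targeted OVX (2, labelled as knockout of Nprl2 and Tsc2 with the guides sgNprl2 and sgTsc2, after ovariectomy). The number of embryos behind a library, their donors and whether replicates came from separate animals are not given in the sources used here, so the p-values measure the spread between these libraries, which may be technical. Day and treatment cannot be told apart in comparisons with E4.5, and the same 2 E4.5 libraries serve in 5 comparisons.

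In the outer cells of the early embryo Hippo signalling is low, so that YAP enters the nucleus and acts with Tead4 on genes such as Cdx2 and Gata3. The AP-2 factors Tfap2a and Tfap2c and the GATA factors Gata2 and Gata3 take part in the same trophoblast programme, and Eomes and Elf5 are known from the trophoblast stem cells that follow. Krt8 and Krt18 pair to form the keratin filaments of simple epithelia, the trophectoderm among them. In diapause the blastocyst pauses before implantation, a state that ovariectomy can bring about in the mouse.

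The sequence before the start site is shown for the 4 genes on which the results turn: Cdx2, Gata3 and Krt18, which passed the test of any difference among the groups of day 5.5, and Krt8, the filament partner and neighbour of Krt18. Each is the RefSeq promoter window of 250 bases before the start site on GRCm38.p6, ended where the first exon of the gene in GENCODE vM21 begins, and is written 5′ to 3′ on the gene's strand. Capitals mark matches, on either strand, to short motifs: AGATAA for GATA factors, GGAATG for TEAD factors, GCCNNNGGC for AP-2, TTTATNG for CDX, CCGGAA for ETS factors and GGTGTGA for T-box factors. The Cdx2 stretch is chr5:147307271-147307499 (minus strand), that of Gata3 chr2:9878601-9878850 (minus), that of Krt8 chr15:102004483-102004592 (minus) and that of Krt18 chr15:102027966-102028179 (plus).
Cdx2: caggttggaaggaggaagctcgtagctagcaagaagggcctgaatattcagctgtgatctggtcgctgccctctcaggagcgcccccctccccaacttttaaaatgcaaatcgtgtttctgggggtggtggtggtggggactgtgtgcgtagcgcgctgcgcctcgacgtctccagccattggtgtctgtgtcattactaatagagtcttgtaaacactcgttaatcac
Gata3: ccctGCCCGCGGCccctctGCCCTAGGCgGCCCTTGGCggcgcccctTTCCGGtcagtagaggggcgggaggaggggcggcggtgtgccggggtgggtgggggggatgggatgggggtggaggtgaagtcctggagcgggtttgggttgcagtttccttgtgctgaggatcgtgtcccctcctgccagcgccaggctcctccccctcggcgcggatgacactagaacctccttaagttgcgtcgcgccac
Krt8: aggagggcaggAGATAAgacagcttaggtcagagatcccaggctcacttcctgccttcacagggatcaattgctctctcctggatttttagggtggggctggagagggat
Krt18: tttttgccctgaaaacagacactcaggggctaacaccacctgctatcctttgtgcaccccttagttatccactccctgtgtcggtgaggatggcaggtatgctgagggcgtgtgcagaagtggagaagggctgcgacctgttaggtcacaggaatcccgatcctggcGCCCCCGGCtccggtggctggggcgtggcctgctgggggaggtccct

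The Gata3 window held 3 AP-2 matches and 1 ETS match (TTCCGG on the strand shown), the Krt18 window 1 AP-2 match, and the Krt8 window 1 GATA match. The Cdx2 window held 1 AP-2 match, in the 21 bases next to the RefSeq start that GENCODE counts as exon and that are not shown. Of all 32851 promoter windows of this length, 13.7% held the AP-2 motif, 9.99% the GATA motif, 12% the ETS motif, 12.6% the TEAD motif, 9.81% the CDX motif and 3.33% the T-box motif. Among the 11 windows of 8 of the genes, the AP-2 motif stood in 4 (Gata3, Cdx2, Gata2 and Krt18) and the TEAD motif in 2 (Elf5 and Gata2), the T-box motif in 1 (Elf5), and the CDX motif was not among the letters of these windows. The motifs do not overlap one another in the stretches shown. A match is a match of letters only, and Tead4 and Tfap2c are named here without a window.

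On GRCm38, Krt8 (ENSMUSG00000049382, chr15:101996698-102004482, minus strand, 9 exons) and Krt18 (ENSMUSG00000023043, chr15:102028180-102032027, plus strand, 7 exons) lie 23.7 kb apart. Cdx2 (ENSMUSG00000029646) spans chr5:147300805-147307270 on the minus strand with 3 exons, and Gata3 (ENSMUSG00000015619) spans chr2:9857078-9890034 on the minus strand with 6. The shown Gata3 stretch lies inside the Gata3 gene model, before an internal start site, and holds no base of an exon. Since the library kit does not mark strand, reads of a gene and of a partner on the other strand cannot be told apart. Genes that overlap Gata3, Tead4 or Krt8, on either strand, had at most 4.12% of the counts of these in a library. Gm33460 had at most 14.4% of those of Eomes. Tfap2a is uncertain for want of strand: Gm26688, on the other strand, had 118% to 291% of the counts of Tfap2a in reduced KSOM, 19.3% to 77.5% in E4.5, OVX and targeted OVX and 4.01% to 9.51% in starvation and depleted KSOM. Gm47061, also on the other strand, had 17.4% to 35.4% in reduced KSOM, 25.3% and 5.42% in E4.5 and at most 5.17% elsewhere. The pseudogene Krt8-ps had 101 to 1086 counts per library, against 40073 or more for Krt8.

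Libraries held 40678386 to 72125687 counts, and the scaling factors (TMM, trimmed mean of M values) ran from 0.671 to 1.414. Levels below are CPM, read counts brought to one common library size after that scaling, and levels of different genes are compared only in FPKM, the authors' deposited value scaled by transcript length and by the fragments of a library. Summed marker levels are an exception: they are CPM of library totals, without the TMM factors. In 4 libraries, called muscle-rich below, the 11 of 13 skeletal muscle markers that were under 5 CPM in E4.5 were high as a sum: all of reduced KSOM (782, 1078 and 692 CPM) and replicate 1 of OVX (937 CPM). The sum was at most 5.57 CPM elsewhere. Its low level in E4.5 follows from how the 11 were picked. Over all 13 markers the sums were 1242, 1472 and 1066 CPM in reduced KSOM and 1452 CPM in OVX replicate 1. They were 319 and 171 CPM in E4.5, 477 and 131 in starvation and 493 and 215 in targeted OVX. OVX replicate 2 was at 135.5 CPM and depleted KSOM at 151 and 186 CPM. By that whole list 8 libraries were over 200 CPM. Summed neutrophil markers (11 genes) were 1370 to 1910 CPM in reduced KSOM, 138 to 644 CPM in OVX and at most 35.3 CPM elsewhere, and summed epiblast markers (14 genes) were 3260 to 6460 CPM in E4.5 and 610 to 2190 CPM at day 5.5. Transcripts of the targeted genes, which need not report on editing, were at 21.3 ± 10.4 CPM (SD, n = 2) for Nprl2 in targeted OVX against 37.3 ± 1.1 in OVX (edgeR adjusted p = 0.552), and at 11.5 ± 4.58 against 18.7 ± 6.53 for Tsc2 (adjusted p = 0.575). The part of these markers in the results below was not tested beyond the values given beside them.

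Few of the 10 genes passed the test in any single comparison. Each gene was tested with edgeR's quasi-likelihood F test over all 21808 genes and called where its p, adjusted by the Benjamini-Hochberg method, was under 0.05; fold changes are log2 values with their standard error. In OVX against E4.5, 1 of the 10 passed (Cdx2, lower) beside 2.04% of all tested genes (0.481% lower), and 7 of the 10 had libraries that did not overlap between the groups beside 46.2% of all genes. In starvation against E4.5, edgeR called 0 of the 10 beside 2.21% of all genes. An unadjusted p under 0.05 was reached by 3 of the 10, beside 3658 of all 21808 genes. DESeq2 called 2, limma on log2 FPKM called 0, and 3 did not overlap beside 44.5%. In depleted KSOM against E4.5, 1 of the 10 passed (Gata3, higher) beside 5.51% of all genes (3.29% higher), and 6 did not overlap beside 55%. Cdx2 and Gata3 were thus the genes called against E4.5, the first lower and the second higher.

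In reduced KSOM against E4.5, 1 of the 10 passed (Cdx2, lower) beside 1.13% of all genes (0.362% lower), and 6 did not overlap beside 44.4%. In targeted OVX against E4.5, 1 passed (Cdx2, lower) beside 2.66% (0.986% lower), and 6 did not overlap beside 48.9%. In targeted OVX against OVX, which asks what the 2 guides change under ovariectomy, edgeR called 0 of the 10 beside 0.0367%; 1 had an unadjusted p under 0.05 (Gata3), DESeq2 and limma called 0, and 2 did not overlap beside 32.0%. No member was therefore called between the targeted and the wild-type blastocysts after ovariectomy.

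Between the 2 culture media, reduced against depleted KSOM, 2 of the 10 passed (Gata3 and Tfap2a, both lower) beside 5.79% of all genes (2.8% lower). All 10 had libraries that did not overlap between these media, 4 higher and 6 lower in reduced KSOM, beside 48.3% of all genes. In 1 test of any difference among the 5 groups of day 5.5, 3 of the 10 passed (Gata3, Cdx2 and Krt18) beside 9.44% of all genes. With a term for the 4 libraries rich in muscle transcripts, 0 of the 10 were called in OVX (227 of all genes), in reduced KSOM (2) and between the media (0), where the main test called 445, 247 and 1263 of all genes. All reduced KSOM libraries carry this term, so its size is set by OVX replicate 1 against OVX replicate 2 alone. In reduced KSOM it therefore cannot tell muscle transcripts from the medium, and a call lost there does not decide between them. The term left 0 of the 10 in starvation and between targeted OVX and OVX (54 of all genes), 1 in depleted KSOM and in targeted OVX (963), and 2 in the test of any difference (1345). At an unadjusted p under 0.05 it left 2 of the 10 in OVX, 3 in starvation, 2 in reduced KSOM, 2 between targeted OVX and OVX and 5 between the media. Without those 4 libraries, and so without the reduced KSOM group, 1 of the 10 passed that test, which was Gata3.

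DESeq2, which called more genes throughout, called 2 of the 10 in OVX beside 9.27% of all genes, 2 in starvation beside 10.6%, 3 in depleted KSOM beside 15.1%, 2 in reduced KSOM beside 8.17% and 2 in targeted OVX beside 11.8%. It called 0 between targeted OVX and OVX beside 4.1%, 4 between the media beside 16.5%, and 8 in the test of any difference beside 25.6%.

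Set against E4.5, the 10 genes had a median log2 fold change of 0.53 (OVX), 0.70 (starvation), 0.40 (depleted KSOM), -0.47 (reduced KSOM) and 0.23 (targeted OVX). Over all tested genes the medians were 0.00, 0.00, -0.09, 0.15 and -0.16 in the same order. It was -0.20 in targeted OVX against OVX (all genes -0.09) and -0.88 in reduced against depleted KSOM (all genes 0.29). The members did not share a direction: 8 of 10 had a positive log2 fold change in OVX and in starvation, 7 in depleted KSOM, 6 in targeted OVX and 4 in reduced KSOM.

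**Figure D1:**
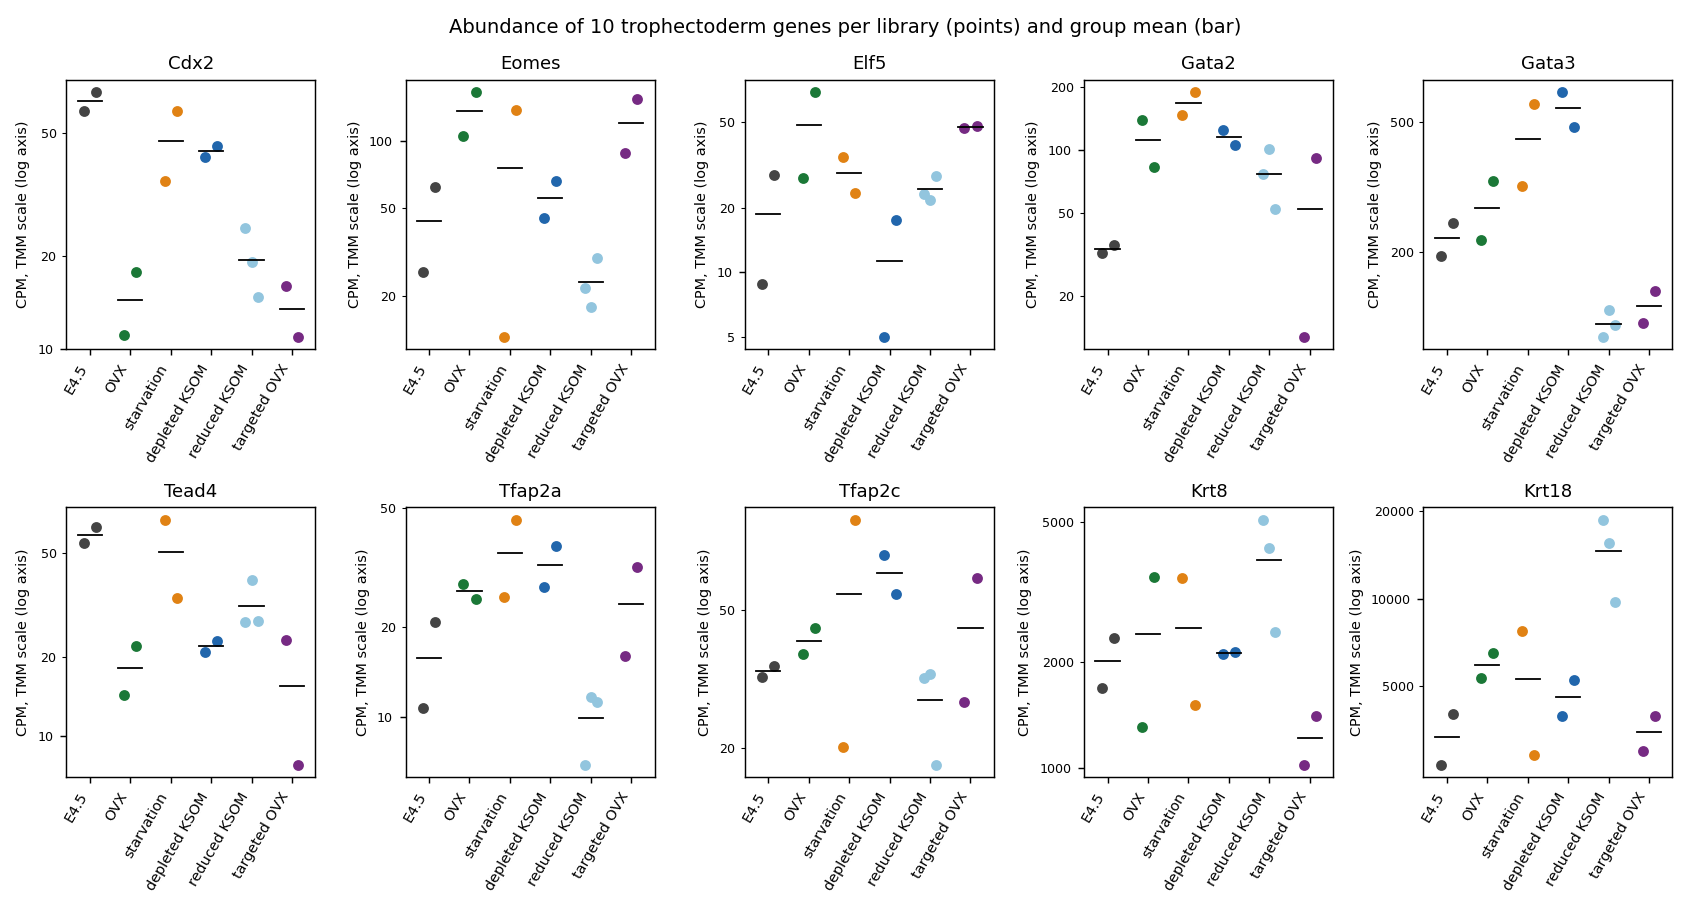
CPM after TMM scaling (log axis) of each of the 10 genes in each of the 13 libraries (points, coloured by group) with the mean of each group (bar). Cdx2 stood at 59.0 and 68.1 CPM in E4.5 and at 10.9 to 24.7 CPM in OVX, targeted OVX and reduced KSOM; Krt18 stood at 9775 to 18740 CPM in reduced KSOM, above every other library.

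Cdx2, the homeobox factor that sets trophectoderm fate, fell in 3 of the 5 groups of day 5.5. It was at 59.0 and 68.1 CPM in E4.5, at 35.0 and 59.3 CPM in starvation and at 42.0 and 45.6 CPM in depleted KSOM. It was at 24.7, 19.2 and 14.8 CPM in reduced KSOM, at 11.1 and 17.8 CPM in OVX and at 16 and 10.9 CPM in targeted OVX. Every library of the last 3 groups lay below every library of the first 3; in this order of group means, depleted and reduced KSOM were the only neighbours whose libraries did not overlap. In bulk libraries such as these, fewer cells of a type and less RNA per cell cannot be told apart.

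Against E4.5, the log2 fold change of Cdx2 was -2.13 ± 0.41 in OVX (SE; adjusted p = 0.0228), a 4.39-fold lower level. It was -2.24 ± 0.42 in targeted OVX (adjusted p = 0.0172) and -1.70 ± 0.36 in reduced KSOM (adjusted p = 0.0444). In starvation it was -0.43 ± 0.40 (adjusted p = 0.607) and in depleted KSOM -0.54 ± 0.40 (adjusted p = 0.442), neither past the test. Cdx2 also differed among the groups of day 5.5 (adjusted p = 0.0208), while the step from depleted to reduced KSOM, -1.17 ± 0.36, had an adjusted p of 0.0759. Targeted OVX and OVX differed by -0.10 ± 0.40 (adjusted p = 1.0).

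These calls rested on few libraries. In OVX the call of Cdx2 was lost when either E4.5 library was left out (adjusted p = 0.072 without the first, 0.12 without the second) and without OVX replicate 1 (0.13), the OVX library rich in muscle transcripts. The fold change without it was -1.83, and with a term for the 4 muscle-rich libraries it was -1.84 (adjusted p = 0.13). Both values rest on OVX replicate 2, since the term takes up replicate 1, so they are not separate checks. Fitted on the 4 libraries of OVX and E4.5 alone, where edgeR called no gene, it was -2.14 (0.15). In reduced KSOM the call was lost without any 1 of the 5 libraries (adjusted p 0.11 to 0.27), and with the muscle term the fold change was -1.02 (adjusted p = 0.71). In targeted OVX the 11 muscle markers summed to at most 5.57 CPM and all 13 to 493 and 215 CPM. There the call of Cdx2 was lost without E4.5 replicate 2 (fold change -2.14) or targeted OVX replicate 2 (-1.99). It was also lost in a fit of the 4 libraries compared (adjusted p = 0.089), and the muscle term left it called (0.011). As CPM of library totals, summed epiblast markers were lower than in E4.5 in every library of day 5.5. The groups where Cdx2 was not called are included in this. The sums were not computed on the TMM scale used for Cdx2, and the part of these markers in the Cdx2 values was not tested. The test of any difference missed the threshold without reduced KSOM replicate 2 (0.052) and without the 4 muscle-rich libraries (0.060).

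**Figure D2:**
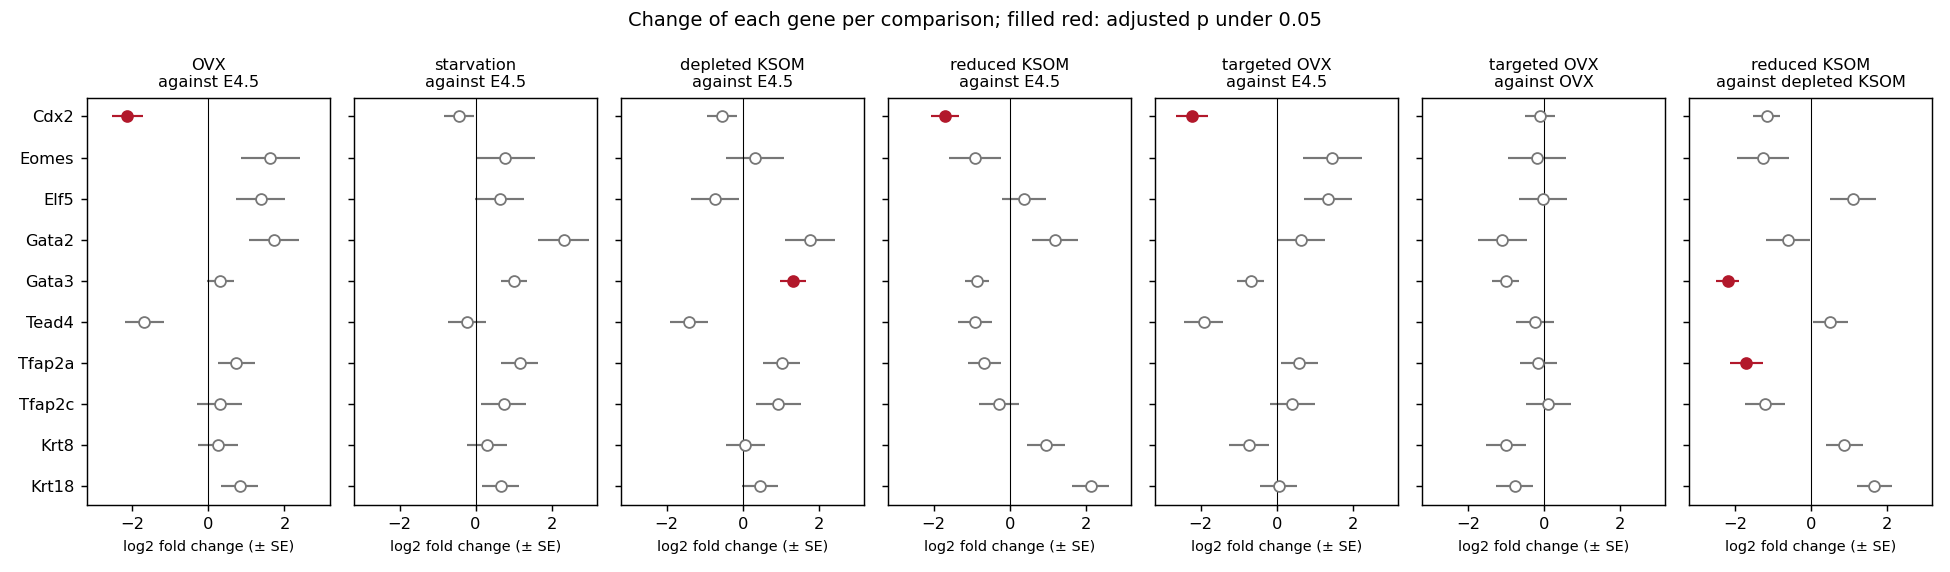
Log2 fold change (points) with its standard error (bars) of each of the 10 genes in the 7 comparisons of 2 groups; filled red points have an adjusted p under 0.05. Cdx2 is filled and negative in OVX, reduced KSOM and targeted OVX against E4.5, and Gata3 is filled and positive in depleted KSOM against E4.5 and filled and negative in reduced against depleted KSOM.

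Tead4, the DNA-binding partner of YAP and TAZ that acts upstream of Cdx2, followed a partly similar order. It was at 54.6 and 63.2 CPM in E4.5, at 67.1 and 33.8 CPM in starvation and at 27.2, 39.6 and 27.5 CPM in reduced KSOM. It was at 21.0 and 23.1 CPM in depleted KSOM, at 14.4 and 22.1 CPM in OVX and at 23.4 and 7.78 CPM in targeted OVX. All libraries of OVX, depleted KSOM, reduced KSOM and targeted OVX were below both E4.5 libraries, and the libraries of starvation were split, 1 above E4.5 and 1 below. In the order of group means, only reduced and depleted KSOM were neighbours without overlap.

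No difference of Tead4 passed edgeR's test. The log2 fold change against E4.5 was -1.69 ± 0.51 in OVX (adjusted p = 0.113), -1.92 ± 0.51 in targeted OVX (0.0676), -1.41 ± 0.51 in depleted KSOM (0.132), -0.22 ± 0.50 in starvation (0.889) and -0.90 ± 0.45 in reduced KSOM (0.356). The threshold was crossed in 5 of 17 alternatives in OVX, in 7 of 17 in targeted OVX and in 3 of 17 in depleted KSOM, DESeq2 among them in each (adjusted p = 0.016, 0.0053 and 0.03). In reduced KSOM it was crossed in 2 of 18. In targeted OVX it was also crossed without targeted OVX replicate 1 (-2.92, adjusted p = 0.015), the library with the higher Tead4 level of that pair.

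Gata3, a trophoblast GATA factor that acts beside Cdx2, had another order of groups than Cdx2. It was at 194 and 246 CPM in E4.5, at 218 and 329 CPM in OVX and at 319 and 568 CPM in starvation. It was highest in depleted KSOM, at 618 and 484 CPM, and lowest in reduced KSOM, at 110, 132 and 119 CPM, with targeted OVX at 121 and 152 CPM. All libraries of depleted KSOM and starvation were above, and all libraries of reduced KSOM and targeted OVX below, both E4.5 libraries. Ordered by group mean, the levels ran from depleted KSOM through starvation, OVX, E4.5 and targeted OVX to reduced KSOM, and only E4.5 and targeted OVX were neighbours without overlap.

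Gata3 rose in depleted KSOM against E4.5, with a log2 fold change of 1.33 ± 0.35 (adjusted p = 0.0465). It was lower in reduced than in depleted KSOM by -2.19 ± 0.31 on the log2 scale (adjusted p = 0.00633), a 4.57-fold lower level, and differed among the groups of day 5.5 (adjusted p = 0.00707). The other values did not pass: 0.31 ± 0.35 in OVX (adjusted p = 0.709), 1.01 ± 0.35 in starvation (0.156), -0.87 ± 0.31 in reduced KSOM (0.211) and -0.69 ± 0.35 in targeted OVX (0.326), each against E4.5. Targeted OVX against OVX gave -1.0 ± 0.35 (adjusted p = 0.323), with both targeted libraries below both OVX libraries. The sign in OVX turned with library totals as the scaling (-0.22). Summed primitive endoderm markers (11 genes) moved with depleted KSOM too: they were at 1290 to 1440 CPM there, 812 to 874 in E4.5, 782 to 1140 in starvation, 469 to 920 in OVX, 692 to 701 in reduced KSOM and 327 to 449 in targeted OVX (Hnf4a at 0), and their part in these results was not tested.

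The 2 calls of Gata3 differed in how far they held. The rise in depleted KSOM was lost without E4.5 replicate 1 or 2 or without depleted KSOM replicate 1 or 2 (adjusted p 0.11 to 0.31), and with library totals as the scaling it was 1.0 (adjusted p = 0.24). The difference between the media was called without each of its 5 libraries in turn (adjusted p 0.016 to 0.038, log2 fold change -2.36 to -2.01). With the term for the 4 muscle-rich libraries, which include all of reduced KSOM, it was -1.60 (adjusted p = 0.50). As the OVX pair alone sets the size of that term, this value cannot tell muscle transcripts from the medium. The difference among the groups of day 5.5 was called in 25 of 25 alternatives, among them the fit without the 4 muscle-rich libraries (adjusted p = 0.036).

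Gata2, the second GATA factor of trophoblast, was at 32.2 and 35.1 CPM in E4.5. It was at 140 and 83 CPM in OVX, at 146 and 189 CPM in starvation, at 125 and 106 CPM in depleted KSOM and at 76.5, 101 and 52.4 CPM in reduced KSOM. The libraries of targeted OVX were far apart, at 12.8 and 92.1 CPM. Thus 10 of the 11 libraries of day 5.5 were above both E4.5 libraries, and targeted OVX replicate 1 was below them. Starvation had the highest group mean and did not overlap depleted KSOM, the next group.

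The differences of Gata2 against E4.5 did not pass: 2.32 ± 0.67 in starvation (log2; adjusted p = 0.0932), 1.78 ± 0.66 in depleted KSOM (0.144), 1.73 ± 0.66 in OVX (0.219), 1.19 ± 0.61 in reduced KSOM (0.37) and 0.64 ± 0.64 in targeted OVX (0.625). DESeq2 called the first 2 (adjusted p = 0.0066 and 0.046). In targeted OVX against OVX the value was -1.09 ± 0.65 (adjusted p = 0.536). It became -3.13 (adjusted p = 0.048) without targeted OVX replicate 2, which leaves a single targeted library.

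Tfap2a and Tfap2c encode AP-2 factors, and Tfap2c in particular is needed in trophoblast. Tfap2a was at 10.7 and 20.9 CPM in E4.5, at 27.9 and 24.8 CPM in OVX, at 25.2 and 45.7 CPM in starvation and at 27.3 and 37.3 CPM in depleted KSOM. It was at 6.92, 11.6 and 11.2 CPM in reduced KSOM and at 16 and 31.7 CPM in targeted OVX. All libraries of OVX, starvation and depleted KSOM were above both E4.5 libraries, while those of reduced KSOM and targeted OVX overlapped them. In the order of group means, from starvation through depleted KSOM, OVX, targeted OVX and E4.5 to reduced KSOM, every pair of neighbours overlapped.

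Tfap2a was lower in reduced than in depleted KSOM, by a log2 fold change of -1.70 ± 0.44 (adjusted p = 0.0412). The call was lost without any 1 of the 5 libraries (adjusted p 0.097 to 0.22) and with the term for the 4 muscle-rich libraries (-1.87, adjusted p = 0.64). Reads of the overlapping Gm26688, which outnumbered those of Tfap2a in all 3 reduced KSOM libraries, make this difference uncertain. Against E4.5 its fold changes ran from -0.67 ± 0.44 in reduced KSOM (adjusted p = 0.48) to 1.17 ± 0.49 in starvation (adjusted p = 0.251).

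Tfap2c was at 32.1 and 34.6 CPM in E4.5, at 37.4 and 44.2 CPM in OVX, at 72 and 55.7 CPM in depleted KSOM and at 31.8, 32.7 and 17.9 CPM in reduced KSOM. The libraries of starvation, at 20.2 and 90.9 CPM, and of targeted OVX, at 27.1 and 61.6 CPM, lay on both sides of E4.5. Depleted KSOM had the highest group mean and reduced KSOM the lowest, and only OVX and E4.5 were neighbours without overlap. No difference passed, the largest being -1.22 ± 0.53 (log2) in reduced against depleted KSOM (adjusted p = 0.195).

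Eomes, a T-box factor of trophoblast stem cells, was at 25.7 and 61.8 CPM in E4.5. It was at 105 and 165 CPM in OVX and at 87.5 and 153 CPM in targeted OVX, above both E4.5 libraries in each. It was at 44.9 and 65.8 CPM in depleted KSOM, at 21.8, 17.9 and 29.6 CPM in reduced KSOM and at 13.1 and 138 CPM in starvation. Starvation was the widest pair, with the second library 10.5 times the first. Ordered by group mean, the levels ran from OVX through targeted OVX, starvation, depleted KSOM and E4.5 to reduced KSOM, and every pair of neighbours overlapped. The log2 fold change against E4.5 was 1.63 ± 0.78 in OVX (adjusted p = 0.336) and 1.46 ± 0.78 in targeted OVX (adjusted p = 0.348), and no difference passed. In starvation its sign depended on the library kept: 0.79 ± 0.77 over both, with values from -1.74 to 1.61 when 1 library was left out.

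Elf5, an ETS factor of trophoblast stem cells, was at 8.85 and 28.4 CPM in E4.5, at 27.6 and 69.0 CPM in OVX and at 46.8 and 47.9 CPM in targeted OVX. It was at 34.3 and 23.3 CPM in starvation, at 4.98 and 17.6 CPM in depleted KSOM and at 23.2, 21.7 and 27.9 CPM in reduced KSOM. Targeted OVX was above E4.5 in both libraries, and in the order of group means (OVX, targeted OVX, starvation, reduced KSOM, E4.5, depleted KSOM) only targeted OVX and starvation were neighbours without overlap. The log2 fold change against E4.5 was 1.38 ± 0.64 in OVX (adjusted p = 0.323), 1.35 ± 0.64 in targeted OVX (0.30) and -0.72 ± 0.64 in depleted KSOM (0.534), and no difference passed. With an FPKM median of 3.54 over the 13 libraries, Elf5 was the lowest of the 10 genes per length.

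The keratins were the most abundant of the 10 genes in every library. Per length, Krt18 ran from 1440 to 9880 FPKM with a median of 3550, and Krt8 from 360 to 1970 with a median of 1080, against 20.8 to 159 FPKM for Gata3, the highest of the factors by median. Krt18 was at 2681 and 4029 CPM in E4.5, at 5342 and 6488 CPM in OVX, at 7728 and 2893 CPM in starvation and at 3944 and 5264 CPM in depleted KSOM. It was at 18740, 15520 and 9775 CPM in reduced KSOM and at 2995 and 3943 CPM in targeted OVX. The 3 libraries of reduced KSOM, which are muscle-rich and had the highest neutrophil sums, were above all 10 others, OVX replicate 1 (the fourth muscle-rich library, 5342 CPM) included. By group mean OVX, starvation, depleted KSOM, targeted OVX and E4.5 followed, and besides reduced KSOM and OVX only depleted KSOM and targeted OVX were neighbours without overlap.

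Krt18 differed among the 5 groups of day 5.5 (adjusted p = 0.0362). No single comparison passed: the log2 fold change was 2.13 ± 0.48 in reduced KSOM against E4.5 (adjusted p = 0.0568) and 1.67 ± 0.47 against depleted KSOM (adjusted p = 0.0562). The first was called in 7 of 18 alternatives, by DESeq2 with an adjusted p of 4.9e-05. With library totals as the scaling its value was 1.44 (adjusted p = 0.10). The test of any difference was lost without reduced KSOM replicate 1 (adjusted p = 0.16), 2 (0.13) or 3 (0.062) and with the term for the 4 muscle-rich libraries (0.35). It was 0.73 without those 4 libraries, a fit that has no reduced KSOM. Markers of uterine epithelium, another simple epithelium, summed to 212 to 307 CPM in reduced KSOM and 233 to 241 CPM in E4.5 (9 genes). Of the 9, 4 were at 0 in both E4.5 libraries (Ltf, Pax8, Msx1 and Calca). In reduced KSOM 1 was at 0 in every library (Pax8). Ltf is also in the neutrophil list and Foxa2 in the primitive endoderm list. These sums are CPM of library totals, not on the TMM scale of the Krt18 levels. The part of these markers in the Krt18 values was not tested.

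Krt8 was at 1694 and 2347 CPM in E4.5, at 1310 and 3494 CPM in OVX, at 3481 and 1514 CPM in starvation and at 2115 and 2141 CPM in depleted KSOM. It was at 5089, 4228 and 2444 CPM in reduced KSOM and at 1020 and 1410 CPM in targeted OVX. Reduced KSOM was above and targeted OVX below both E4.5 libraries. By group mean the order was reduced KSOM, starvation, OVX, depleted KSOM, E4.5 and targeted OVX, and only E4.5 and targeted OVX were neighbours without overlap. No difference passed: the log2 fold change against E4.5 was 0.96 ± 0.49 in reduced KSOM (adjusted p = 0.371), -0.73 ± 0.52 in targeted OVX (0.465) and between 0.07 and 0.31 in the other groups. In OVX (0.25) and in depleted KSOM (0.07) the sign turned with library totals as the scaling (-0.20 and -0.25).

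Ratios of 2 genes in the same library do not depend on how libraries are scaled against each other. The ratio of Gata3 to Cdx2 (FPKM) was 1.87 and 2.05 in E4.5. It was 11.1 and 10.5 in OVX, 5.19 and 5.45 in starvation, 8.35 and 6.03 in depleted KSOM, 2.53, 3.92 and 4.60 in reduced KSOM and 4.28 and 7.91 in targeted OVX. All 11 libraries of day 5.5 were above both E4.5 libraries. In OVX and targeted OVX it was Cdx2 that had been called lower, and in depleted KSOM Gata3 that had been called higher. With 2 libraries in most groups, ratios are given without a test.

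The ratio of Cdx2 to Eomes was 4.23 and 2.02 in E4.5, and 0.194 and 0.198 in OVX and 0.337 and 0.131 in targeted OVX. In the 4 libraries from ovariectomised females Eomes thus exceeded Cdx2 per length, whereas Cdx2 exceeded Eomes in E4.5 and in depleted KSOM (1.72 and 1.27). The ratio was 4.91 and 0.791 in starvation and 2.08, 1.97 and 0.915 in reduced KSOM, on both sides of 1 in each. Both libraries of OVX gave nearly the same ratio. Of these, replicate 1 was rich in muscle transcripts, and the part of those transcripts in the ratio was not tested.

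The ratio of Gata3 to Tead4 was 3.22 and 3.51 in E4.5 and 3.64, 3.02 and 3.93 in reduced KSOM, which overlapped. It was 13.7 and 13.5 in OVX and 26.6 and 18.9 in depleted KSOM, above E4.5 in each library. In starvation it was 4.30 and 15.2 and in targeted OVX 4.68 and 17.7, also above E4.5 but spread over a wide range.

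The ratio of Krt18 to Krt8 was 2.16 and 2.34 in E4.5, 3.03 and 2.60 in starvation and 2.54 and 3.35 in depleted KSOM. It was 5.02, 5.0 and 5.45 in reduced KSOM, 4.0 and 3.81 in targeted OVX and 5.56 and 2.53 in OVX. All libraries of day 5.5 were above both E4.5 libraries. Libraries also differed in a trend over gene length: the rank correlation, over 9209 genes, of a gene's level in a library with its length. It was -0.211 to -0.096 in reduced KSOM, -0.286 and -0.232 in targeted OVX, -0.188 and -0.033 in OVX, and 0.003 to 0.323 in the other groups. The libraries with ratios of 3.81 to 5.56 had trends of -0.286 to -0.096. Those with ratios of 2.16 to 3.35 had trends of -0.033 to 0.323. The longest coding transcript is 1437 bases for Krt18 and 1958 for Krt8, and the part of that trend in the ratio was not tested.

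**Figure D3:**
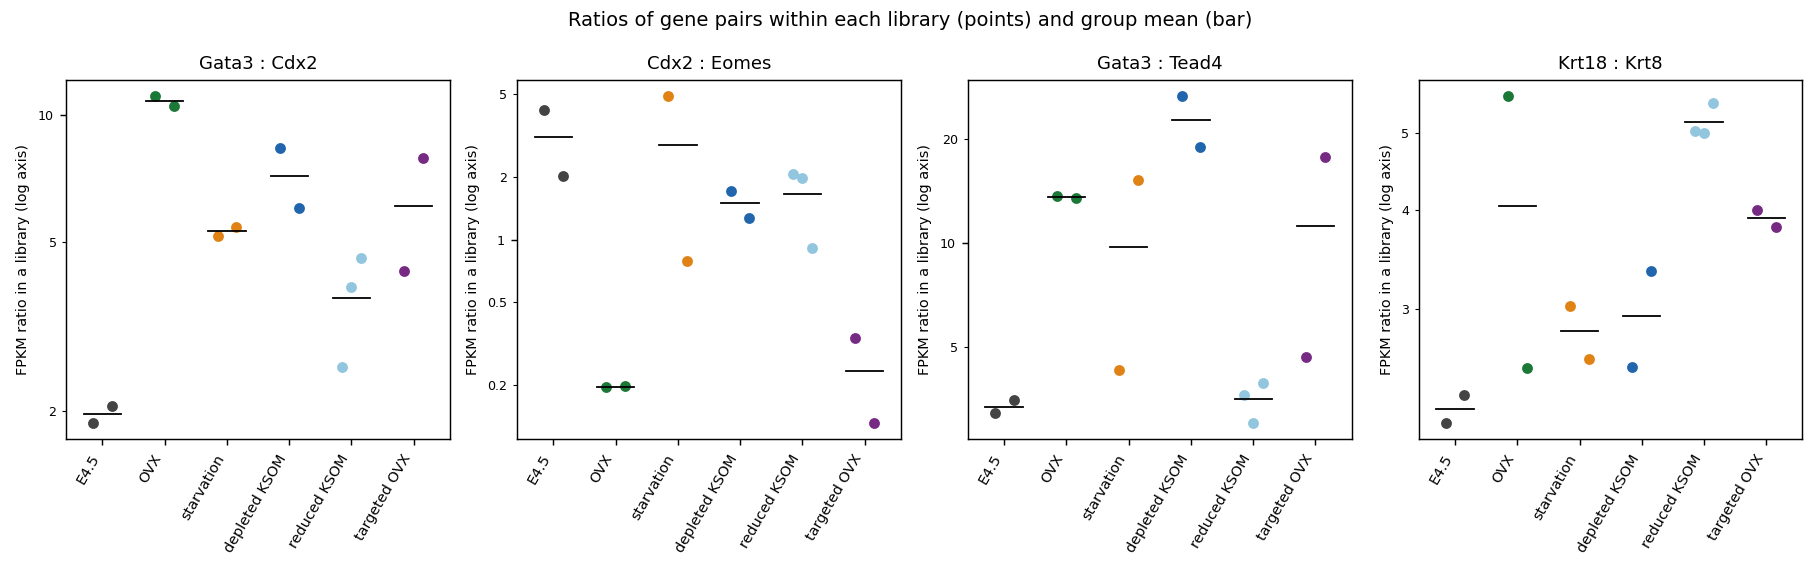
Ratio of FPKM values of 2 genes within each library (points; log axis) and group mean (bar) for Gata3 to Cdx2, Cdx2 to Eomes, Gata3 to Tead4 and Krt18 to Krt8. Gata3 to Cdx2 is lowest in the 2 E4.5 libraries (1.87 and 2.05), and Cdx2 to Eomes is lowest in OVX and targeted OVX (0.131 to 0.337).

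Across the 13 libraries, which share their group structure, scaling and depth, levels of some of the genes varied together (Pearson's r of log2 CPM with a prior count of 2, given as a description). The keratin pair had the highest value, r = 0.838 for Krt8 and Krt18. The next were Gata3 and Tfap2a (0.775), Cdx2 and Tead4 (0.684), Tfap2a and Tfap2c (0.679) and Gata3 and Tfap2c (0.658). Eomes went with Tfap2a (0.644) and against Tead4 (-0.629), and the pairs of Eomes with Krt8 (-0.592) and Krt18 (-0.556) and of Cdx2 with Elf5 (-0.555) were negative too. Cdx2 went with Gata3 (0.586) and Eomes with Tfap2c (0.618), so the genes did not fall into separate sets.

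**Figure D4:**
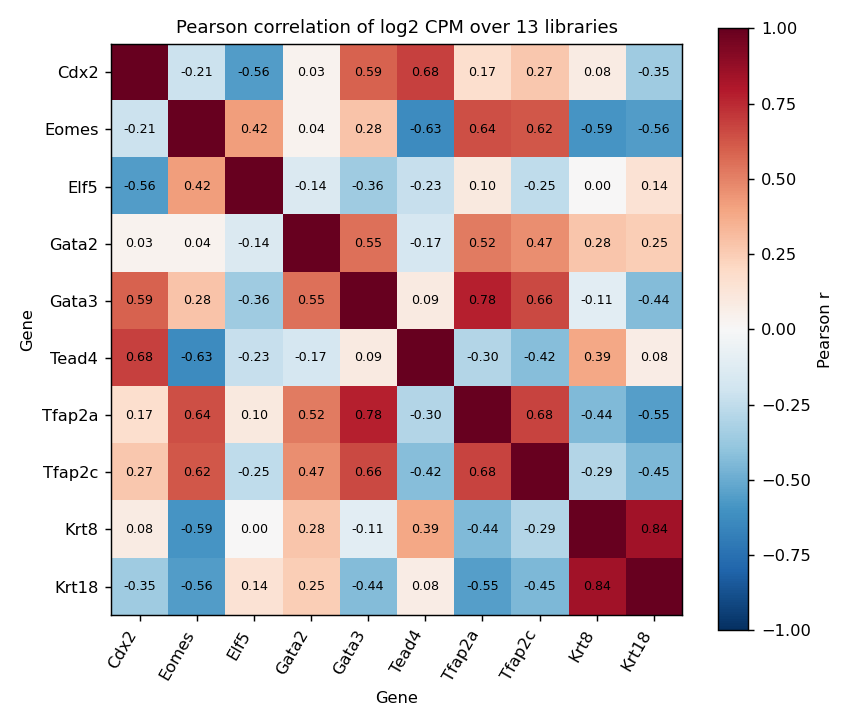
Pearson's r of log2 CPM between each pair of the 10 genes over the 13 libraries (red positive, blue negative). The highest value is 0.838 (Krt8 with Krt18) and the lowest -0.629 (Eomes with Tead4).

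Of 9209 genes with a mean of at least 5 CPM, the 3 whose levels over the 13 libraries were most like those of Cdx2 were Erbb3 (r = 0.935), a receptor tyrosine kinase, Ptbp1 (0.934), a splicing regulator, and Cmtm6 (0.921). For Krt8 they were Brk1 (0.929), a subunit of the WAVE complex, Rps6kb2 (0.907), an S6 kinase, and Prkar1a (0.843), a regulatory subunit of protein kinase A. The filament partner Krt18, at 0.838, was close to the third of these.

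Other genes of the pathway were taken from 3 lists, which were chosen with earlier results of these data known. Of 19 genes of the Hippo pathway, which controls whether YAP acts with Tead4, edgeR called 0 in each of the 7 comparisons of 2 groups. The share of all tested genes called there was 0.0367% to 5.79%. At an unadjusted p under 0.05 there were 1 to 7 of the 19, beside 2372 to 4946 of all 21808 genes. DESeq2 called 0 to 3 of the 19, and limma 0 to 3 of the 14 it tested. The median log2 fold change of the 19 against E4.5 was between -0.42 in targeted OVX and 0.33 in starvation. In the test of any difference among the groups of day 5.5, 1 of the 19 passed, beside 9.44% of all tested genes. This was the kinase gene Lats2 (adjusted p = 0.0348), at 22.8 and 27.9 CPM in starvation and at 4.62 to 13.3 CPM in the other libraries of day 5.5. It was called in 13 of 25 alternatives. It was lost without starvation replicate 2 (0.09), depleted KSOM replicate 1 (0.061) or 2 (0.057), any reduced KSOM replicate (0.075 to 0.086) or targeted OVX replicate 1 (0.055), and without the 4 muscle-rich libraries (0.14).

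The list of other trophoblast genes was chosen with earlier results of these data known. Its counts are therefore no test of trophoblast genes as a class. Of the 18 tested, 5 rose in OVX, 4 in starvation, 5 in depleted KSOM and 4 in targeted OVX against E4.5, with none lower. Beside them 2.04%, 2.21%, 5.51% and 2.66% of all tested genes were called in either direction. In reduced KSOM 4 rose and 1 fell, beside 1.13%. In targeted OVX against OVX edgeR called 0, and 2 had an unadjusted p under 0.05, beside 2372 of all 21808 genes. DESeq2 called 1 there, beside 4.1%, and limma 0. Lgals3, which encodes galectin-3, rose in each of the 5: it was at 71.1 ± 12.5 CPM in E4.5 (SD, n = 2), 828 ± 208 in OVX, 947 ± 229 in targeted OVX, 1083 ± 223 in starvation, 494 ± 41.7 in reduced KSOM (n = 3) and 439 ± 86.9 in depleted KSOM (largest adjusted p = 0.00933). Plac1, a placental gene, rose in 4 groups, from 73.1 ± 30.9 CPM in E4.5 to 658 ± 7.29 in OVX and 686 ± 44.5 in targeted OVX. Tspan8, a tetraspanin, rose in OVX, starvation, depleted KSOM and targeted OVX, by 13.4-fold in OVX (adjusted p = 0.00156). In reduced KSOM it was at 976, 1170 and 1160 CPM, above the 272 and 436 CPM of E4.5. Without E4.5 replicate 1 the adjusted p was 0.094 for Tspan8 in starvation and 0.071 and 0.062 for Plac1 in depleted and reduced KSOM, and with the muscle term it was 0.24 for both Lgals3 and Plac1 in reduced KSOM. In fits of the 4 libraries compared, in which edgeR called no gene, the calls of these genes in OVX, starvation and targeted OVX were lost (0.089 to 0.23). Cdx2, which fell in 3 of these groups, thus moved opposite to these 3 genes in OVX and targeted OVX. In reduced KSOM, where Cdx2 was lower, every library of these 3 genes was also above both E4.5 libraries.

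In reduced KSOM against E4.5, Dppa1 rose with a log2 fold change of 1.89 ± 0.37 (adjusted p = 0.0341). It was called in 9 of 18 alternatives and in none of the 5 that left out 1 library (0.09 to 0.25).

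Between the media, 5 of the 18 were lower in reduced than in depleted KSOM and none higher, beside 2.8% of all genes called lower. Cldn4, a tight junction claudin, was at 171 ± 44.3 against 1549 ± 285 CPM (log2 fold change -3.18 ± 0.54, adjusted p = 0.0109). Klf5, a Krüppel-like factor of trophectoderm, was at 207 ± 7.2 against 569 ± 23.9 CPM (adjusted p = 0.0116), and Fgfr2, the FGF receptor of trophoblast, at 43.7 ± 3.96 against 147 ± 1.25 CPM (adjusted p = 0.0162). With the term for the 4 muscle-rich libraries their adjusted p were 0.78, 0.55 and 0.71. Leaving out any 1 library lost Klf5 and Fgfr2 (adjusted p 0.051 to 0.093), and leaving out reduced KSOM replicate 2 or 3 lost Cldn4 (0.054 and 0.055).

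Of 14 other keratin and desmosome genes, edgeR called 1 in OVX (Perp, lower) beside 2.04% of all tested genes. It called 2 in targeted OVX (Krt19 higher, Jup lower) beside 2.66%. In the test of any difference it called the same 3 genes, beside 9.44%. In the other 5 comparisons it called 0, beside 0.0367% to 5.79% of all genes. There 2 to 5 of the 14 had an unadjusted p under 0.05, beside 2372 to 4946 of all 21808 genes. DESeq2 called 0 to 2, and limma 0 to 2 of the 9 it tested. Perp, a desmosome-associated membrane protein, was at 108 ± 25.7 CPM in E4.5 and 30.3 ± 5.08 in OVX (log2 fold change -1.83 ± 0.34, adjusted p = 0.0185). It did not pass without E4.5 replicate 1 (0.13) or OVX replicate 1 (0.093), with the muscle term (0.096) and in a fit of the 4 libraries compared (0.15). Jup, which encodes plakoglobin, was at 33.5 ± 0.508 CPM in E4.5 and 9.27 ± 5.33 in targeted OVX (adjusted p = 0.0478). Krt19 was at 9.95 ± 0.607 CPM in E4.5 and at 20.8 and 294 CPM in the 2 targeted OVX libraries (adjusted p = 0.049), and without the second the log2 fold change was 1.06 (adjusted p = 0.62). Without targeted OVX replicate 2 the adjusted p of Jup was 0.28, and both calls were also lost without either E4.5 library (0.12 to 0.19). In the test of any difference Perp and Krt19 were called in 25 of 25 alternatives and Jup in 13, lost without the 4 muscle-rich libraries (0.20), any depleted or reduced KSOM replicate (0.052 to 0.092) or targeted OVX replicate 2 (0.064). Krt19 was at 41.9 and 123 CPM in OVX and at 1.16 to 12.9 CPM in the other wild-type libraries of day 5.5, an order unlike that of Krt8 and Krt18.

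**Figure D5:**
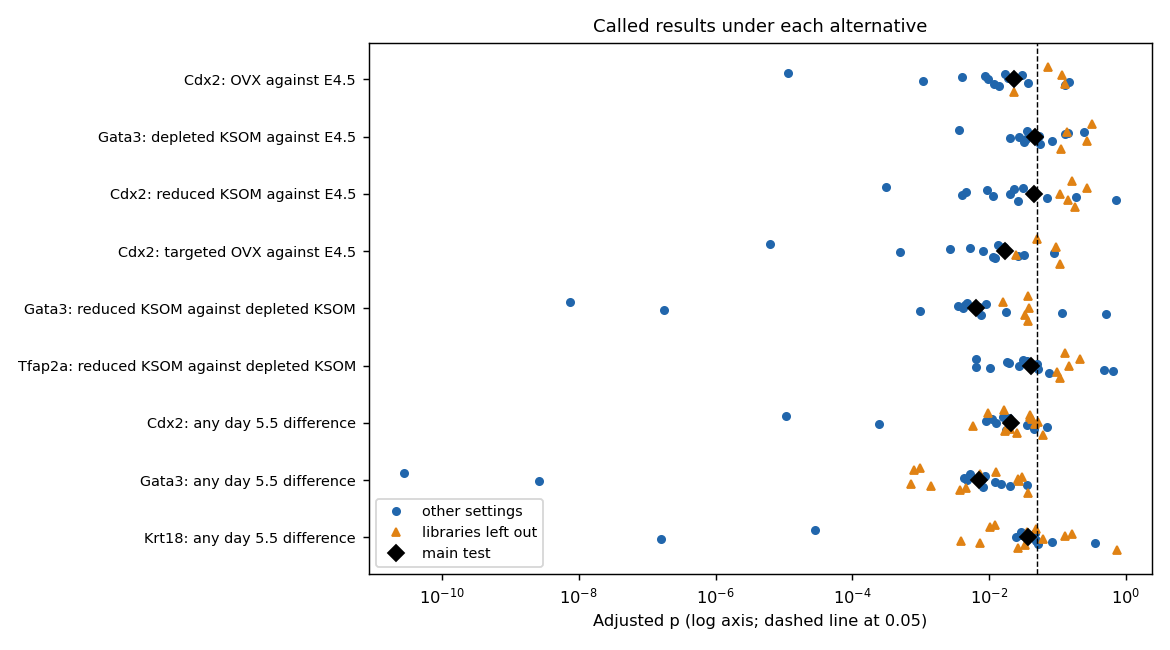
Adjusted p (log axis) of each called result of the 10 genes in the main test (diamonds), under other settings (circles) and with libraries left out (triangles); the dashed line is at 0.05. All points of Gata3 in the test of any difference among groups of day 5.5 are left of the line, and each other result has points on both sides.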

How the data were processed

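Fragmented, PCR-amplified full-length cDNA (SMART-Seq v4, without molecular identifiers) was sequenced, per the labels' protocols. The authors deposited whole-number read counts per gene and FPKM. The submitters' processing notes name cutadapt 1.9, HISAT2 2.0.4, StringTie 1.3.4d and GRCm38; the counting tool and its annotation are not given in the sources used here. The 10 genes and the 3 lists were chosen with earlier results of these data known. All libraries and genes entered 1 edgeR 4.0.16 fit (R 4.3.3, TMM, filterByExpr, quasi-likelihood F test, a mean per group, 7 residual degrees of freedom, common biological coefficient of variation 0.896), adjusted over all genes tested. All 10 genes are described in every comparison; of each list up to 3 called genes are named per comparison, by smallest adjusted p, and for Cdx2 and Krt8 the 3 most alike genes. One gene that this rule names is not reported here. DESeq2 1.42.0 and limma 3.58.1 (log2 FPKM plus 1 or 0.1, mean FPKM of at least 1) were alternatives, beside other scalings, filters and libraries left out. The test was tried on simulated data for OVX against E4.5 (19968 genes): it found 22.4% of the genes changed 4-fold, 95.5% of those changed 16-fold and 100% of those changed 64-fold, and 2 of its 147 calls were false. The labels do not say that a replicate number marks a shared animal or batch, and the correlation of same-numbered libraries was not over 0.1 in every pair, so the number was used only in an alternative. Summed marker lists of epiblast, primitive endoderm, skeletal muscle, neutrophil, uterine epithelium and erythroid cells were computed as values without a test.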

Additional observations from a re-analysis of the deposited data

How the results depend on the processing

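Few libraries per group limit these results: a 4-fold change was mostly missed in the simulation of OVX against E4.5. Of the called results of the 10 genes, Gata3 in the test of any difference among the groups of day 5.5 was the only one called under all its alternatives. Over 1460 alternative values of the 10 genes, 1258 kept direction and side of the threshold, 81 that were uncalled both ways differed in sign, 73 were newly called, 48 lost their call and 0 reversed. The term for the 4 muscle-rich libraries and their omission were added after seeing the data, while a term for the 8 libraries over 200 CPM of the whole muscle list was planned. That planned term lost Cdx2 in reduced KSOM (adjusted p = 0.071), Gata3 in depleted KSOM (0.081), Gata3 (0.12) and Tfap2a (0.48) between the media, and Cdx2 (0.071) and Krt18 (0.083) in the test of any difference. An offset for transcript length lost Gata3 in depleted KSOM (0.055), Tfap2a between the media (0.076) and Krt18 in the test of any difference (0.052), median-of-ratios scaling lost Gata3 in depleted KSOM (0.054) and Tfap2a between the media (0.051), and limma lost Gata3 in depleted KSOM (0.13 and 0.14). The cause of the changes below was not tested.

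Genes called in the main test numbered, against E4.5, 445 (OVX), 483 (starvation), 1201 (depleted KSOM), 247 (reduced KSOM) and 581 (targeted OVX), then 8 in targeted OVX against OVX, 1263 in reduced against depleted KSOM, and 2058 for any difference. In that order DESeq2 called 2021, 2306, 3285, 1781, 2573, 895, 3608 and 5587. Without the low-count filter the counts were 1470, 1473, 2370, 1226, 1638, 636, 2652 and 5175. With limma on FPKM plus 1 the 7 comparisons gave 1584, 1449, 2305, 1834, 1933, 20 and 2368, and with FPKM plus 0.1 they gave 1195, 1115, 1987, 1414, 1720, 21 and 2223. Library totals as scaling gave 287 in OVX, 230 in starvation and 545 in reduced KSOM, and a minimum mean CPM of 5 gave 888, 978 and 499 there and 1039 in targeted OVX.

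Fitting only the groups compared, edgeR called 0 in OVX (3334 at an unadjusted p under 0.05), 0 in starvation (2942), 0 in targeted OVX (4165) and 0 in targeted OVX against OVX (1272), but 2212 in depleted KSOM, 2462 in reduced KSOM and 4455 between the media. The term for 8 libraries gave 35 in targeted OVX against OVX, 11 between the media and 742 for any difference. The term for 4 libraries gave 227 in OVX, 2 in reduced KSOM, 963 in targeted OVX, 54 in targeted OVX against OVX, 0 between the media (1687 at an unadjusted p under 0.05) and 1345 for any difference, which was 1036 without those 4 libraries. Leaving out 1 library at a time gave 109 to 691 (OVX), 55 to 1105 (starvation), 378 to 540 (depleted KSOM), 9 to 46 (reduced KSOM), 82 to 791 (targeted OVX), 22 to 179 in targeted OVX against OVX, 121 to 225 between the media and 668 to 3575 for any difference; a group left with 1 library is assumed to vary like the others.

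With the replicate number as a block the counts were 312 (OVX), 311 (starvation), 1008 (depleted KSOM), 59 (reduced KSOM), 380 (targeted OVX), 4 in targeted OVX against OVX, 479 between the media and 1166 for any difference. Of the 10 genes the block lost Cdx2 in reduced KSOM (-1.52, adjusted p = 0.19) and Tfap2a between the media (-1.83, 0.052). Libraries of the same number had a median correlation of their deviations of 0.037 over 30 pairs (-0.064 to 0.162), against -0.019 over 40 pairs of different numbers, and 10 of 13 correlated best with their own number. The last value is a hint from the data, not the design, that a number may be shared, while the correlations are low and not over 0.1 in every pair.

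Of the called genes, the share that was higher was 76.4% in OVX (32.1% with library totals, 15.1% with limma on FPKM plus 1), 76.0% in starvation (49.1% and 30.0%), 59.8% in depleted KSOM (27.9% and 29.5%), 68.0% in reduced KSOM (15% and 16.6%), 63.0% in targeted OVX (14.1% and 15%), 12.5% in targeted OVX against OVX (14.3% and 60%, and 0.0% with median-of-ratios scaling) and 51.6% between the media (38.8% and 39.1%). With library totals the median over all genes moved, on the log2 scale, to -0.53, -0.17, -0.41, -0.50, -0.93, -0.26 and 0.00 in the same order.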
